A study of Mus musculus with 4 samples.

Results

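Cassette exons of 31 to 300 nt whose length is not a multiple of 3 are called frame-shifting here, wherever they lie in the transcript. Within the coding sequence, they shift the reading frame between the form that holds them and the form that skips them. They were chosen by length alone, from the exon ends written in the name of each splicing event, and made up 8244 of the 16034 cassette events in the files, in 5301 genes. The length left a remainder of 1 nt after whole codons in 4152 of them and of 2 nt in 4092. Inclusion was the fraction of junction tags that join the exon to its neighbours, with the 2 inclusion junctions averaged, over those plus the tags that skip it. An event was tested where its coverage, the smallest sum of junction tags of either group or either isoform, was at least 20 tags, which held for 2032 of the 8244 events, in 1504 genes and at 1918 distinct positions among the 2030 that could be placed on the annotation. The samples were E14.5 mouse cortices of 2 controls (Qk fl/fl, labelled wild type) and 2 Qk cKO littermates (Nestin-Cre:Qk fl/fl). The floxed Qk alleles were present in both groups, and only the Qk cKO animals also carried the Nestin-Cre transgene, whose Cre acts in neural progenitors and is inherited by their progeny, so cells of other origin in the dissected cortex keep Qk. The labels give 2 independent replicates per group, where the study's methods give 3, and do not say how many embryos made a library, so the edgeR p-values measure only the spread between these 4 samples, which may be technical, and the Fisher's exact values only the counting error of summed tags.

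Within the coding sequence, an exon whose length is not a multiple of 3 shifts the frame of the codons after it. If the shifted frame meets a stop codon well upstream of the last exon junction, the transcript is a candidate for nonsense-mediated decay, in which a ribosome that stops ahead of a remaining junction complex triggers degradation of the mRNA. An exon that brings in such a stop is often called a poison exon, and many RNA-binding proteins limit their own level by including one, while for other genes it is the skipped form that carries the stop. Frame-shifting exons close to the end of the coding sequence can instead exchange one C-terminus for another, and those in the 5′ UTR leave the protein as it is. Qk encodes Quaking, an RNA-binding protein of the STAR family whose nuclear isoform regulates splicing in neural progenitors.

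The sequences of the exons on which the results turn are given first, 5′ to 3′ on the transcribed strand, as printed in the GENCODE M21 transcripts. Capitals mark a stop codon that is read in frame inside the exon. Where more than 30 nt follow that stop, only the bases up to it are shown. The first group are exons that differed between control and Qk cKO and hold such a stop.
Ralgapa1, 31 nt: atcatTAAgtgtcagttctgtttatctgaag
Golga4, 65 nt: ttcacctcacctcgcagtggcatcttcTGA
Crtc2, 67 nt: cttgctcttTGA
Cyfip1, 154 nt: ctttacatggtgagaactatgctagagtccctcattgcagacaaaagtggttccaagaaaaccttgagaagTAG
Odz4 (Tenm4), 97 nt: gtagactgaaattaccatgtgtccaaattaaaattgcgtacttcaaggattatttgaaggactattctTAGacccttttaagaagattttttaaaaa
Spata5, 37 nt: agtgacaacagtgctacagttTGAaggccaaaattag
Gpm6b, 91 nt: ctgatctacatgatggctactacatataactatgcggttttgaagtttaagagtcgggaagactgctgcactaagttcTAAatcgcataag
The next 3 also differed, but hold no stop of their own and move the reading frame for the exons that follow.
Bcas3, 91 nt: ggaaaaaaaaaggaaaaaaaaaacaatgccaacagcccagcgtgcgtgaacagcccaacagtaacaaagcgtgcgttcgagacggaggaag
Fmnl2, 47 nt: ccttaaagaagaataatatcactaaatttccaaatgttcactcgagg
Eml2, 98 nt: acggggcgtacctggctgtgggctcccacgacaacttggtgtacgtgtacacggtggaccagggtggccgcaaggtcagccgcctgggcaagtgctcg
The last 3 are shown for comparison with exons whose inclusion differed little, a stop-holding exon of the splicing factor gene Rbm39 and both frame-shifting exons of Fubp3, a gene whose level fell in Qk cKO.
Rbm39, 73 nt: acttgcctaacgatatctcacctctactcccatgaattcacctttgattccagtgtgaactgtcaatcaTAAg
Fubp3, 58 nt: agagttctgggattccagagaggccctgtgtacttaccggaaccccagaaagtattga
Fubp3, 133 nt: tttcaggcacctcaaagcagaTAA

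On mm10, the Ralgapa1 exon lies at chr12:55612073-55612103 on the minus strand and is exon 40 of the 41 exons of Ralgapa1-201, and the Golga4 exon lies at chr9:118579542-118579606 on the plus strand and is absent from Golga4-201. The exons of Crtc2 (chr3:90262914-90262980), Cyfip1 (chr7:55898238-55898391), Odz4 (chr7:96496244-96496340), Spata5 (chr3:37529983-37530019), Gpm6b (chrX:166385391-166385481) and Bcas3 (chr11:85822022-85822112) are on the plus strand and are likewise skipped in the coding transcript that was read. Those of Fmnl2 (chr2:53130412-53130458, plus strand) and Eml2 (chr7:19201830-19201927, plus strand) are part of the transcript, as exon 26 of 27 of Fmnl2-201 and exon 15 of 19 of Eml2-203. Rbm39 is on the minus strand (chr2:156178880-156178952), and the Fubp3 exons are at chr2:31596594-31596651 and chr2:31612103-31612235 on the plus strand. The stop inside the exon begins at base 6 of the Ralgapa1 exon, 28 of Golga4, 10 of Crtc2, 72 of Cyfip1 and 79 of Gpm6b, counted from 1 at the exon's 5′ end.

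The 4 libraries held 37941978 to 42994780 tags assigned to genes, and a tested frame-shifting event had a median of 132 to 148 junction tags per library. Tags on the junction of Qk exon 2, the floxed exon, with exon 3 numbered 635 and 565 in control and 63 and 68 in Qk cKO, as the labels imply. Tags on the junction of exon 3 with exon 4 rose, from 574 and 439 in control to 898 and 830 in Qk cKO. RPKM of the whole Qk gene was also higher, at 21.1 and 21.7 in control and 32.5 and 34.2 in Qk cKO (log2 fold change 0.65, edgeR FDR 2.50e-05). Markers of radial glia and of cortical neurons, which define this tissue, summed to 1298 to 1665 and 1188 to 1296 RPKM per library. Of the 9 cortical neuron markers 8 had values, and no marker with values was at 0 in all 4 libraries. Erythroid markers summed to 754 and 765 in control and 1084 and 780 in Qk cKO. Those of meninges and mesenchyme summed to 135 and 125 in control and 124 and 164 in Qk cKO. The radial glia sum was 1546 and 1665 in control and 1298 and 1361 in Qk cKO, with 2 of 10 genes lower (Fabp7 and Slc1a3). Of 8 markers of hypothalamus and diencephalon, 6 were lower in Qk cKO. The 8 summed to 11.5 and 17.5 RPKM in control and 8.11 and 8.43 in Qk cKO. Over all genes tested, 0.584% changed level (110 of 18834). The marker lists were chosen with earlier results of these data known, and the study's own list of changed transcripts holds these 6. Both counts are thus descriptions only. The part of these shifts in the exon differences below was not tested, and in bulk tissue fewer cells of a type and less RNA per cell cannot be told apart.

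Of the 2032 frame-shifting events tested, 56 differed between Qk cKO and control by at least 0.1 in inclusion, in 54 genes. Inclusion was lower in Qk cKO in 36 of them, among them exons of Ralgapa1, Crtc2, Pxmp3 and Cyfip1, and higher in 20, among them exons of Golga4, Tjap1 and Odz4. An event counted as changed at p below 0.01 and FDR below 0.1 in a two-sided Fisher's exact test of the inclusion and skipping isoform tags, which also count tags inside the exon, summed over the samples of each group, with Benjamini-Hochberg adjustment over all 4600 cassette events tested. The 56 are 2.76% of the frame-shifting events, beside 4.85% of all cassette events tested (2.22% more included and 2.63% less included), and beside 127 of 2092 frame-preserving exons of the same length range (6.07%, 58 more and 69 less included). Coverage differed between the classes, with a median of 49.0 tags for frame-shifting and 69.5 for frame-preserving exons. Within coverage of 20 to under 50 tags, 25 of 1030 frame-shifting (2.43%) and 20 of 789 frame-preserving exons (2.53%) were called, and at 50 to under 200 tags 27 of 803 (3.36%) and 73 of 890 (8.20%). These shares are descriptions, and the difference between the classes was not tested.

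**Figure D1:**
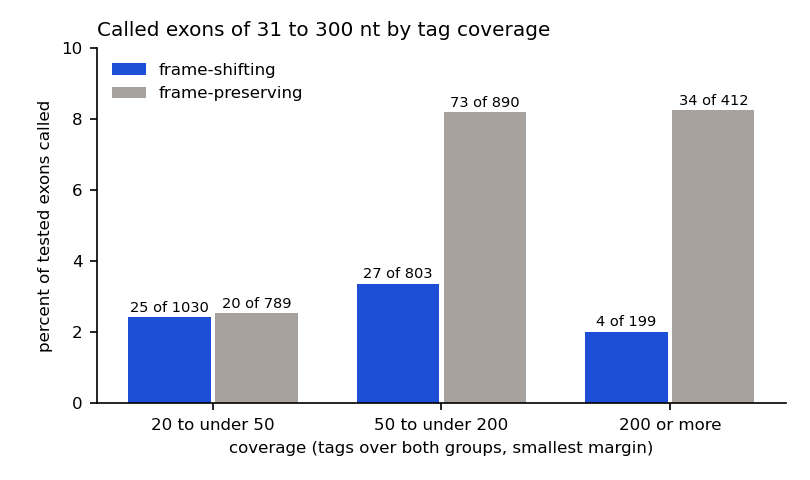
Percent of tested cassette exons of 31 to 300 nt called in Qk cKO against control (vertical axis), for frame-shifting and frame-preserving exons in 3 bands of tag coverage, with the counts above the bars. The bars are level at 20 to under 50 tags (2.43% and 2.53%) and apart at 200 tags or more (2.01% and 8.25%).

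Summed tags leave out the variation between samples. The samples of the 2 groups did not overlap in 52 of the 56 called events (the exceptions were exons of Pum2, Fbxl20, Sulf1 and Flot2) and in 711 of the 2032 tested frame-shifting events (35.0%), beside 38.5% of all cassette events tested. The 56 were chosen for their difference in these same 4 samples, which largely fixed the count of 52, so it is a description only. An edgeR quasi-likelihood test of the isoform by genotype interaction, which uses the variation between samples, called 9 frame-shifting events in 8 genes at FDR below 0.1, beside 1.59% of all cassette events (73 of 4600) and 46 frame-preserving exons. Of these 9, 6 were also among the 56. The count of 9 fell to 3 without control replicate 1, 4 without control replicate 2 and 0 without either Qk cKO replicate, where the lone sample is assumed to vary as the other group does. By the Fisher rule, the 20 more included events became 31 without control replicate 2 and the 36 less included events 19 without Qk cKO replicate 1. Without the limit of 0.1 on the difference, Fisher's exact test called 135 frame-shifting events, beside 9.28% of all cassette events, and 79 of these differed by less than 0.1 (median absolute difference over all tested events, 0.0245). The largest increase among the 56 was that of a 103 nt exon of Thap6, chosen after its value was seen, at 0.0476 and 0.333 against 1.0 and 0.462, which had a coverage of 21 tags and did not pass the edgeR test (FDR 0.428).

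The largest decrease of inclusion among the events called by both tests was in Ralgapa1, which encodes the catalytic alpha 1 subunit of the Ral GTPase-activating protein complex. Inclusion of its 31 nt exon was 0.764 and 0.870 in control and 0.532 and 0.385 in Qk cKO, with 95% Wilson intervals from 0.649 to 0.928 over the controls and from 0.281 to 0.643 over the Qk cKO samples (intervals cover counting error only). The 2 groups did not overlap, and summed inclusion fell by 0.369 (Fisher's exact FDR 1.87e-08, edgeR interaction FDR 0.00950). The exon ends the protein at 2035 amino acids, 23 nt before the last junction, and skipping it moves the stop into the last exon, for 2082 amino acids. The same class came from 3 of the 4 coding transcripts of Ralgapa1 that could be read. RPKM of the gene was 11.98 and 11.95 in control and 13.5 and 14.6 in Qk cKO, and Ralgapa1 was the only gene with both a called frame-shifting exon and a changed level, at a log2 fold change of 0.25 (SE 0.05, edgeR FDR 0.0615). The level call was lost without control replicate 1 (log2 fold change 0.25), control replicate 2 (0.24) or Qk cKO replicate 2 (0.20). The tags of an exon are part of those of its gene, and both comparisons used the same 4 libraries, so the 2 values are not independent.

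Golga4, a golgin of the trans-Golgi network, had the largest increase among the events called by both tests. Inclusion of the 65 nt exon was 0.542 and 0.700 in control and 0.928 and 0.829 in Qk cKO, a difference of 0.268 (Fisher's exact FDR 2.33e-12, edgeR interaction FDR 0.00663), and the 95% intervals of all 4 samples ran from 0.460 to 0.959. The stop in the exon lies 35 nt before the last junction, so that the predicted proteins with and without the exon differ at the C-terminus but hardly in length, at 2240 and 2238 amino acids. RPKM was 24.8 and 25.7 in control and 27.6 and 28.4 in Qk cKO, with a log2 fold change of 0.16 (SE 0.05, edgeR FDR 0.307), which did not pass the test. Gpm6b, a membrane proteolipid of neural cells, had the smallest edgeR interaction FDR of the frame-shifting exons (0.00135) at a low inclusion of 0.0898 and 0.101 in control and 0.0305 and 0.0271 in Qk cKO, so that the difference of -0.0657 was under the limit of 0.1 (Fisher's exact FDR 5.47e-21). Its 91 nt exon holds an alternative C-terminus, with a protein of 246 amino acids when included and 269 when skipped, and the level of the gene did not pass the test (log2 fold change 0.06, edgeR FDR 0.894).

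With a stop more than 50 nt before the last junction counted as premature, Crtc2 and Cyfip1 held the exons with a premature stop when included that both tests called. Where any stop before the last junction counted, the edgeR interaction test called 5 exons of this class, the others being in Ralgapa1, Golga4 and Gpm6b. In Crtc2, a coactivator of CREB, the included 67 nt exon stops the frame at 560 instead of 692 amino acids, 242 nt before the last junction, and GENCODE annotates the transcript that holds it as a target of nonsense-mediated decay. Inclusion was 0.560 and 0.662 in control and 0.369 and 0.295 in Qk cKO (difference -0.272, Fisher's exact FDR 4.61e-05, edgeR interaction FDR 0.0757). RPKM of Crtc2 was 7.89 and 8.23 in control and 9.49 and 9.97 in Qk cKO, so both Qk cKO samples were above both controls, but the log2 fold change of 0.28 (SE 0.11, edgeR FDR 0.395) did not pass the test. Cyfip1 encodes a subunit of the WAVE actin-regulatory complex that also binds the fragile X protein. Its 154 nt exon, which would end the protein at 631 of 1251 amino acids, had an inclusion of 0.427 and 0.419 in control and 0.234 and 0.225 in Qk cKO, with the samples of each group close together (difference -0.194, Fisher's exact FDR 6.17e-06, edgeR interaction FDR 0.0511). RPKM was 14.9 and 14.9 in control and 16.1 and 16.9 in Qk cKO, a log2 fold change of 0.16 (SE 0.05, edgeR FDR 0.285). The Cyfip1 prediction inserts the exon into Cyfip1-202, the 1 coding transcript with both neighbouring exon ends, and the exon is also annotated in 3 coding transcripts with other neighbours.

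The remaining events called by edgeR were in Pxmp3 (Pex2), Tjap1 and Fam134c (Retreg3). In Pxmp3, a ubiquitin ligase component of the peroxisomal import machinery, inclusion of a 64 nt exon of the 5′ UTR (chr3:5562669-5562732) was 0.513 and 0.478 in control and 0.287 and 0.181 in Qk cKO (edgeR interaction FDR 0.0469). RPKM of Pxmp3 was 13.8 and 13.8 in control and 11.8 and 11.7 in Qk cKO and its log2 fold change -0.22 (SE 0.11, edgeR FDR 0.607). The 130 nt exon of Tjap1, a tight junction-associated protein also found at the Golgi, also lies in the 5′ UTR (chr17:46271800-46271929), and its inclusion was 0.483 and 0.527 in control and 0.717 and 0.724 in Qk cKO (edgeR interaction FDR 0.0970). Its level did not pass the test (log2 fold change 0.04, edgeR FDR 0.942). Fam134c, of a family of receptors for autophagy of the endoplasmic reticulum, had 2 events of 110 and 133 nt that share 1 exon end and the skipping tags, so they are not independent. The 133 nt form had an inclusion of 0.983 and 0.988 in control and 0.937 and 0.923 in Qk cKO (edgeR interaction FDR 0.0710), and both differences were under 0.1. The Fisher calls with a difference of at least 0.1 in Ralgapa1, Golga4, Crtc2, Cyfip1, Pxmp3, Tjap1 and Rer1 held when any 1 of the 4 libraries was left out.

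**Figure D2:**
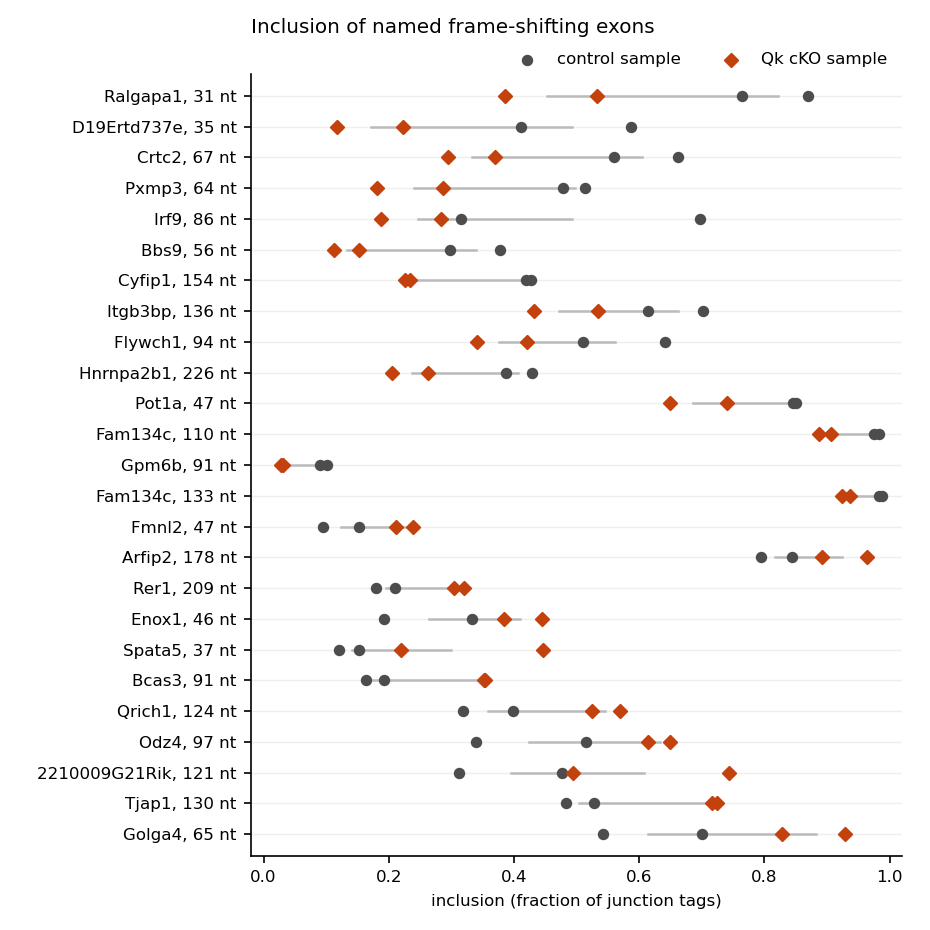
Inclusion in each of the 4 samples (horizontal axis, fraction of junction tags) for the frame-shifting exons named by size of change or by edgeR, ordered by the difference. Dots are the 2 controls, diamonds the 2 Qk cKO samples and grey lines join the group values from summed tags. The Ralgapa1 exon is the lowest in Qk cKO relative to control (-0.369) and the Golga4 exon the highest (0.268).

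Among the other exons that were less included in Qk cKO with coverage of at least 40 tags, inclusion in control against Qk cKO was 0.586 and 0.412 against 0.222 and 0.118 for a 35 nt exon of D19Ertd737e (Fam204a), and 0.298 and 0.377 against 0.112 and 0.152 for a 56 nt exon of Bbs9, a subunit of the BBSome that carries cargo to cilia. Exons of Irf9, the DNA-binding subunit of the interferon-stimulated complex (0.316 and 0.697 against 0.188 and 0.283), and of Itgb3bp, a kinetochore protein (0.614 and 0.701 against 0.534 and 0.431) were lower in Qk cKO as well, the former with the controls far apart. The differences of these 4 were between -0.321 and -0.189 and none passed the edgeR interaction test (FDR 0.379 to 0.530). The same held for a 94 nt exon of the zinc finger gene Flywch1 (0.511 and 0.641 against 0.341 and 0.420), whose 98 nt event shares its tags, for a 47 nt exon of Pot1a with the start codon of this telomere-binding protein (0.850 and 0.846 against 0.649 and 0.740), and for a 226 nt exon of Hnrnpa2b1 (described with the splicing factors below). Each of these 6 calls was lost with 1 library or another left out, and the difference without it is given in brackets. Leaving out control replicate 1 ended the calls of D19Ertd737e (-0.240), Itgb3bp (-0.229) and Pot1a (-0.160). Without control replicate 2, those of Bbs9 (-0.166), Irf9 (-0.0687), Itgb3bp (-0.142), Flywch1 (-0.135) and Pot1a (-0.165) were lost. Leaving out Qk cKO replicate 1 ended the calls of Bbs9 (-0.187), Irf9 (-0.210), Flywch1 (-0.140) and Pot1a (-0.108). Without Qk cKO replicate 2, those of D19Ertd737e (-0.270) and Itgb3bp (-0.127) were lost. D19Ertd737e without Qk cKO replicate 1 and Irf9 without Qk cKO replicate 2 fell under 20 tags and could not be tested. Levels of the 7 genes did not pass the test, with log2 fold changes from -0.28 (D19Ertd737e, edgeR FDR 0.402) to 0.29 (Itgb3bp, edgeR FDR 0.572).

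The exons more included in Qk cKO included several near the 3′ end of the coding sequence. The 91 nt exon of Bcas3, a protein of the cytoskeleton and autophagy, was at 0.193 and 0.163 against 0.354 and 0.351 and replaces the C-terminus at a protein of 921 instead of 928 amino acids. The exon of Fmnl2, a formin that elongates actin filaments, did the same at 0.0952 and 0.153 against 0.238 and 0.212 (1083 and 1091 amino acids). The exon of Spata5, an AAA ATPase of ribosome maturation, was at 0.152 and 0.121 against 0.219 and 0.447, so that 1 Qk cKO sample carried most of the difference. Its stop falls 13 nt before the last junction, under the 50 nt that was required of a premature stop. In Odz4 (Tenm4), a teneurin of neuronal connectivity, inclusion was 0.339 and 0.515 against 0.615 and 0.650, and the exon would stop the protein after 26 amino acids if the annotated start were used, while the RPKM of Odz4 was 16.8 and 17.4 in control and 16.2 and 17.6 in Qk cKO (log2 fold change -0.0019, edgeR FDR 0.996). Exons in the 5′ UTR of Qrich1 (0.399 and 0.319 against 0.524 and 0.570) and of Rer1, which returns proteins from Golgi to endoplasmic reticulum (0.210 and 0.180 against 0.305 and 0.321), and exons of 2210009G21Rik (Slx4ip, 0.312 and 0.477 against 0.494 and 0.743), Enox1 (0.333 and 0.193 against 0.444 and 0.384) and Arfip2 (0.795 and 0.845 against 0.892 and 0.964) completed the 11 that met the rule. Leaving out control replicate 1 ended the calls of 2210009G21Rik (0.131), Odz4 (0.119), Qrich1 (0.227), Spata5 (0.179), Arfip2 (0.0798) and Fmnl2 (0.0720). Without control replicate 2, those of Qrich1 (0.146), Bcas3 (0.160) and Enox1 (0.0755) were lost. Leaving out Qk cKO replicate 1 ended the calls of Qrich1 (0.211), Enox1 (0.120) and Fmnl2 (0.0872). Without Qk cKO replicate 2, those of 2210009G21Rik (0.0986), Odz4 (0.190), Qrich1 (0.165), Bcas3 (0.179), Spata5 (0.0773), Enox1 (0.180) and Arfip2 (0.0755) were lost. None of these 9 beyond Golga4 and Tjap1 passed the edgeR interaction test (FDR 0.275 to 0.539), and the log2 fold changes of their genes lay between -0.07 and 0.14, none past the test.

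Frame-shifting exons were grouped by what they do to an annotated coding transcript, translated from its start codon with and without the exon, where a stop more than 50 nt before the last junction counted as premature. Of the tested events, 382 gave a premature stop when included, 545 when skipped, 327 gave none in either form, 87 held the start codon and 353 lay in the 5′ UTR. A further 147 were not annotated and 179 had no coding transcript with both neighbouring exon ends. In both premature-stop classes the form with the stop is the one that the transcript read does not use: it skips all 382 exons with a stop when included and holds all 545 with a stop when skipped. The low inclusion of the former and the high inclusion of the latter were thus largely fixed by the choice of transcript and are descriptions. In control, median inclusion was 0.0993 and 0.107 for exons with a stop when included, 254 of which (66.5%) were below 0.2, and 0.901 and 0.902 for exons with a stop when skipped, 403 of which (73.9%) were above 0.8. Qk cKO medians were 0.102 and 0.110 for the former and 0.903 and 0.904 for the latter, and the median difference per exon was 0.00110 and -0.00130. The annotation has a nonsense-mediated decay transcript with the exon for 231 of the 382 and one that skips it for 246 of the 545. For the opposite form it has one that skips the exon for 81 of the 382 and one with it for 156 of the 545. Over all 2032 tested events, 577 had such a transcript with the exon and 462 one that skips it. The stop lay within the exon itself in 302 of the 382.

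**Figure D3:**
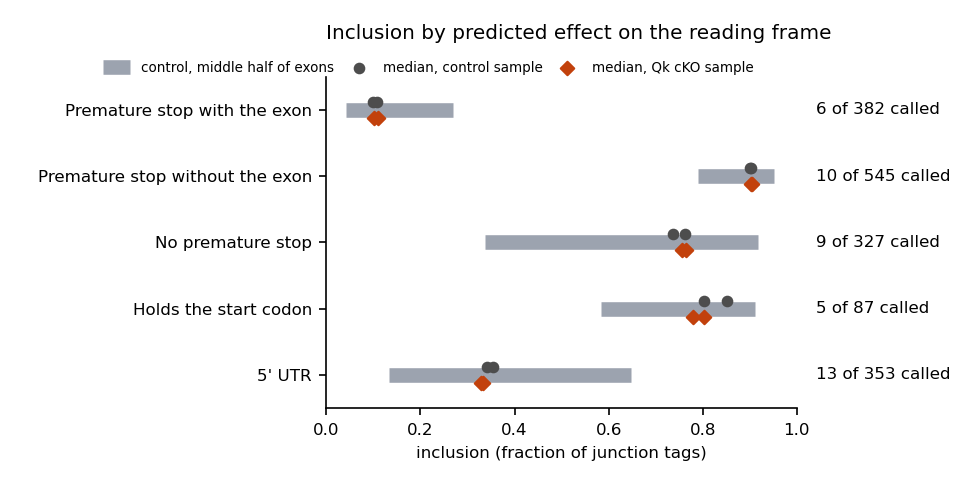
Inclusion (horizontal axis, fraction of junction tags) of tested frame-shifting exons by predicted effect on the reading frame. Grey bars span the lower to upper quartile in control, dots and diamonds are the medians of each control and Qk cKO sample, and the counts give the events called. Exons with a premature stop when included sit near 0.111 and those with one when skipped near 0.899 in both groups, which the choice of transcript largely fixes.

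Called events made up 6 of 382 exons with a stop when included (1.57%), 10 of 545 with a stop when skipped (1.83%), 9 of 327 with no premature stop (2.75%), 13 of 353 in the 5′ UTR (3.68%) and 5 of 87 with the start codon (5.75%). The rest were 10 of 179 with no coding transcript with both neighbouring exon ends (5.59%) and 3 of 147 not annotated (2.04%). The share was 2.76% of all frame-shifting and 4.85% of all cassette events. The 6 with a stop when included were Crtc2, Cyfip1, Ccdc64 (Bicdl1, 0.899 and 0.829 against 0.780 and 0.600) and Rdh13 (0.246 and 0.182 against 0.104 and 0.0873), which were less included in Qk cKO, and Odz4 and Arfip2, which were more included. In Ccdc64 and Arfip2 most control tags held the exon (0.866 and 0.817), beside a class median of 0.111. The frames of Crtc2, Cyfip1, Rdh13 and Arfip2 were each read from 1 coding transcript, which skips the exon. The 10 with a stop when skipped were less included in Slc35b3, Tmem175, Haus2, Stra13 (Cenpx), Adal, Eml2 and Fbxw5 and more included in Fbxl20, Flot2 and Gcc2. The genes here that were not named above were chosen after their values were seen. In Slc35b3, a transporter of the sulfate donor for Golgi sulfation, inclusion of the 155 nt exon was 0.829 and 0.867 in control and 0.579 and 0.499 in Qk cKO, the largest decrease of this class (-0.307, Fisher's exact FDR 0.0111), and skipping cuts the protein from 369 to 132 amino acids. Eml2, a microtubule-associated protein, was at 0.836 and 0.856 in control and 0.711 and 0.726 in Qk cKO (649 amino acids with the exon, 505 without), and Haus2, an augmin subunit that nucleates spindle microtubules, at 0.857 and 0.879 in control and 0.766 and 0.594 in Qk cKO. With a library left out, some of these events fell under 20 tags and could not be tested: Gcc2 without control replicate 1, Fbxl20 without control replicate 2, Gcc2, Haus2, Slc35b3 and Tmem175 without Qk cKO replicate 1, and Haus2, Slc35b3 and Tmem175 without Qk cKO replicate 2. Among those that could be tested, these calls were lost, with the difference again in brackets. Leaving out control replicate 1 ended the calls of Haus2 (-0.203), Ccdc64 (-0.134), Stra13 (-0.136), Adal (-0.0371), Eml2 (-0.138), Rdh13 (-0.0869), Fbxw5 (-0.108) and Flot2 (0.0183). Without control replicate 2, those of Slc35b3 (-0.289), Tmem175 (-0.161), Haus2 (-0.181), Eml2 (-0.117) and Rdh13 (-0.151) were lost. Leaving out Qk cKO replicate 1 ended the calls of Adal (-0.150), Eml2 (-0.119) and Fbxl20 (0.0719). Without Qk cKO replicate 2, those of Ccdc64 (-0.0858), Stra13 (-0.103), Adal (-0.129), Rdh13 (-0.102), Fbxw5 (-0.0514), Flot2 (0.154) and Gcc2 (0.180) were lost.

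None of the 16 genes with a called exon of these 2 classes had a changed level. Their log2 fold changes ran from -0.11 (Eml2) to 0.28 (Crtc2), with edgeR FDR from 0.285 to 0.996 and standard errors of 0.05 to 0.12. Over all tested events of a class, the median log2 fold change of the gene was 0.028 for exons with a stop when included and 0.023 for those with a stop when skipped, beside 0.021 for all 1504 genes with a tested frame-shifting exon and -0.00253 for all 18834 genes. Median RPKM of the genes was likewise close, at 21.4 in control and 21.8 in Qk cKO for the former class and 21.6 and 21.4 for the latter.

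**Figure D4:**
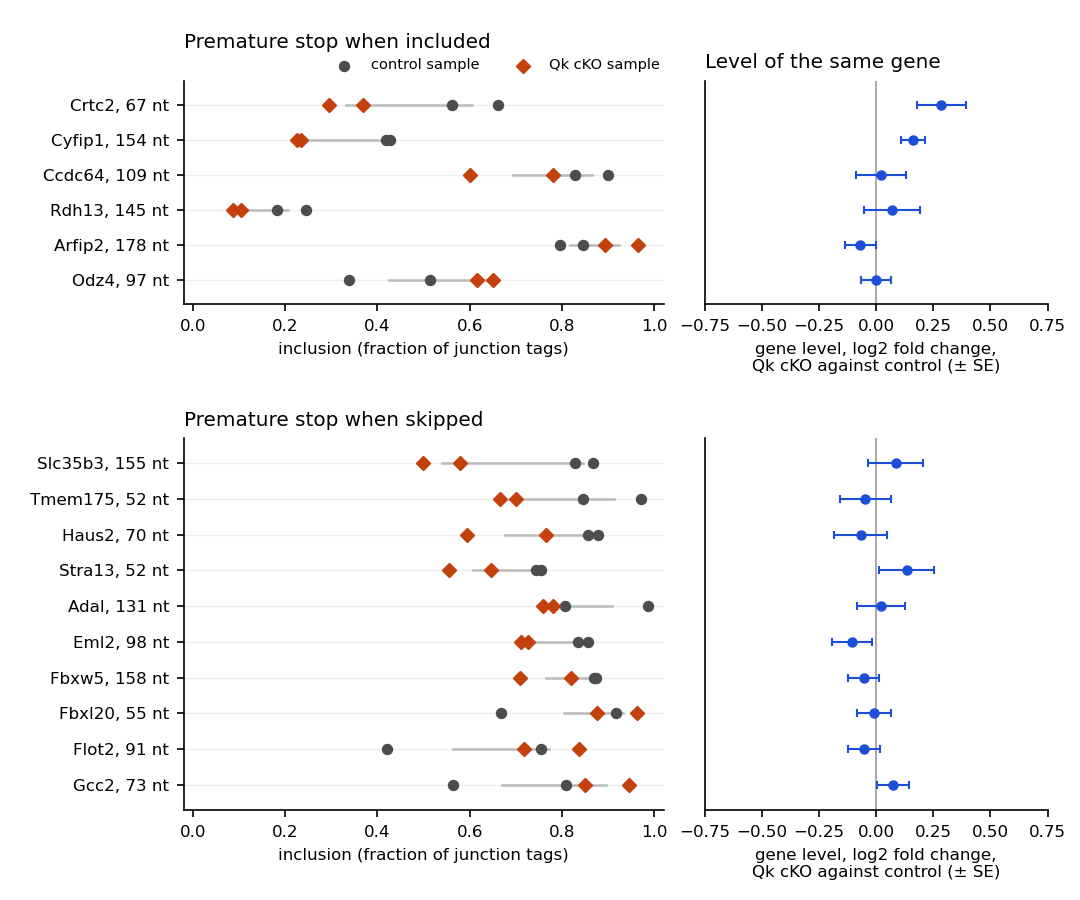
Called frame-shifting exons with a predicted premature stop when included (top) or when skipped (bottom): inclusion in each sample (left, fraction of junction tags, dots control, diamonds Qk cKO, lines joining group values) beside the log2 fold change of the gene's tags (right, points with standard error). Crtc2 is the highest of the right panels at 0.28 and Eml2 the lowest at -0.11.

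Read from the other side, 13 of the 1504 genes with a tested frame-shifting exon changed level, 6 higher and 7 lower in Qk cKO, at edgeR p below 0.01 and FDR below 0.1, beside 0.584% of all genes tested (110 of 18834). The count depended on single libraries: it was 0 without either control replicate 1 or control replicate 2 and 38 without Qk cKO replicate 1. Apart from the Ralgapa1 exon, none of their frame-shifting exons was called with a difference of at least 0.1. Arhgap11a, a GTPase-activating protein for RhoA in dividing cells, had the smallest FDR of those that rose, with RPKM of 18.2 and 18.1 in control and 25.3 and 29.02 in Qk cKO (log2 fold change 0.59, SE 0.06, edgeR FDR 3.92e-05), while its 139 nt exon was at 0.852 and 0.873 in control and 0.917 and 0.887 in Qk cKO. Mdm4, an inhibitor of p53, rose by 0.27 on the log2 scale (SE 0.06, edgeR FDR 0.0852), and its 68 nt exon, whose skipping cuts the protein from 489 to 127 amino acids, was at 0.870 and 0.903 in control and 0.793 and 0.806 in Qk cKO (difference -0.0855, Fisher's exact FDR 0.209). On the same scale Smc4, of the condensin complex, rose by 0.34, Dkc1, the pseudouridine synthase dyskerin, by 0.27 and Plcb4, a phospholipase C, by 0.38 (edgeR FDR 0.0409, 0.0728 and 0.0975). The stop-bearing 82 nt exon of Dkc1 was at 0.207 and 0.0400 in control and 0.143 and 0.152 in Qk cKO, where the controls enclosed the Qk cKO samples. The log2 fold changes with a library left out are given in brackets. Without control replicate 1, the levels of Arhgap11a (0.60), Plcb4 (0.24), Smc4 (0.39), Mdm4 (0.27) and Dkc1 (0.28) no longer passed. Without control replicate 2, the levels of Arhgap11a (0.58), Plcb4 (0.52), Smc4 (0.29), Mdm4 (0.27) and Dkc1 (0.24) no longer passed. Without Qk cKO replicate 1, the level of Plcb4 (0.31) no longer passed. Without Qk cKO replicate 2, the levels of Smc4 (0.26), Mdm4 (0.22) and Dkc1 (0.25) no longer passed.

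Fubp3, which encodes a single-stranded nucleic acid binding protein, had tested exons of both decay-prone kinds. RPKM was 27.1 and 26.3 in control and 21.97 and 21.3 in Qk cKO (log2 fold change -0.29, SE 0.06, edgeR FDR 0.0486). The 58 nt exon, whose skipping leaves 174 of 569 amino acids, was at 0.967 and 0.951 in control and 0.869 and 0.919 in Qk cKO, and the 133 nt exon, which stops the frame at 433 amino acids when included, was at 0.10 and 0.0484 in control and 0.130 and 0.101 in Qk cKO. The differences were -0.0667 and 0.0408 (Fisher's exact FDR 0.0765 and 0.310, edgeR interaction FDR 0.367 and 0.723), so the 58 nt exon passed the Fisher thresholds with a difference under 0.1. The other genes that fell were Ttyh1, a membrane protein of neural progenitors, with a log2 fold change of -0.42 (SE 0.05, edgeR FDR 5.87e-04), the LIM domain gene Fhl1 at -0.38 (SE 0.07, edgeR FDR 0.0227) and Acaa1a, a peroxisomal thiolase, at -0.36 (SE 0.09, edgeR FDR 0.0888). Haghl stood at -0.45 (SE 0.11, edgeR FDR 0.0887), the ribosomal protein gene Rpl27a at -0.43 (SE 0.10, edgeR FDR 0.0785) and Gng12, a G protein gamma subunit, at -0.57 (SE 0.13, edgeR FDR 0.0866). Inclusion of their exons differed by -0.0212 in Acaa1a, -0.0164 in Haghl, 0.0118 in Ttyh1, 0.0494 in Fhl1, at most 0.00275 in the 2 overlapping events of Rpl27a and 0.0652 and 0.105 in those of Gng12, and none was called. Rpl27a has processed copies in the genome, so its tags are uncertain. Without control replicate 1, the levels of Fubp3 (-0.26), Ttyh1 (-0.46), Fhl1 (-0.39), Acaa1a (-0.29), Haghl (-0.44), Rpl27a (-0.39) and Gng12 (-0.72) no longer passed. Without control replicate 2, the levels of Fubp3 (-0.32), Ttyh1 (-0.39), Fhl1 (-0.38), Acaa1a (-0.42), Haghl (-0.47), Rpl27a (-0.47) and Gng12 (-0.40) no longer passed. Without Qk cKO replicate 2, the levels of Fubp3 (-0.26), Acaa1a (-0.28), Haghl (-0.51) and Gng12 (-0.60) no longer passed.

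**Figure D5:**
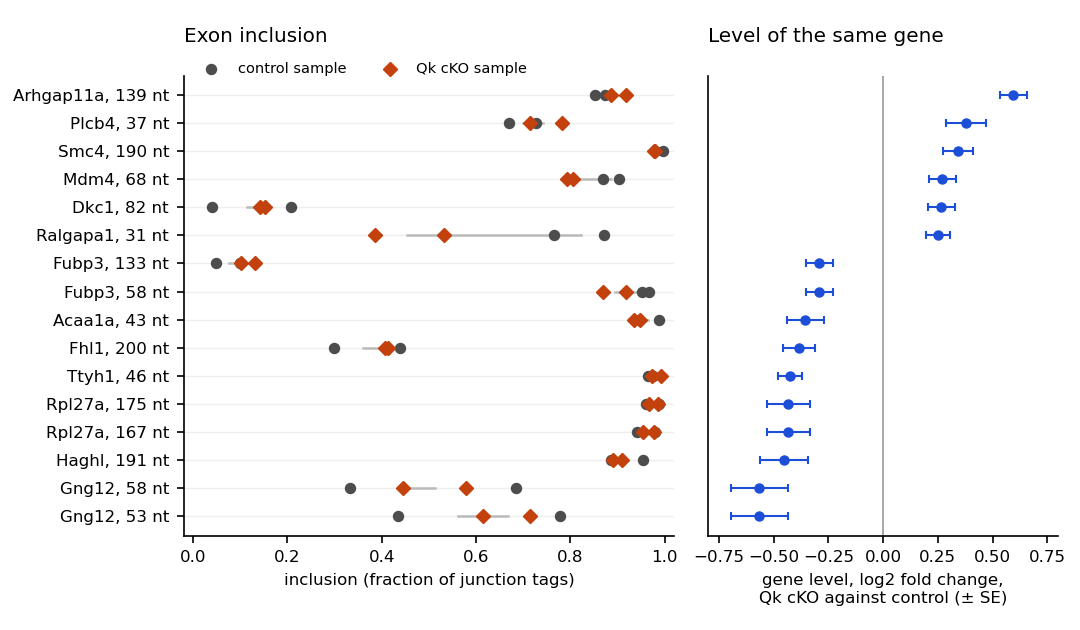
Tested frame-shifting exons of the genes whose level changed: inclusion in each sample (left, fraction of junction tags, dots control, diamonds Qk cKO) beside the log2 fold change of the gene (right, points with standard error), ordered by the level. Of the exons shown, the Ralgapa1 exon is the one with a called difference (-0.369), and gene levels run from -0.57 (Gng12) to 0.59 (Arhgap11a).

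A list of 82 RNA-binding proteins and other genes for which decay-coupled exons are generally known had 63 tested frame-shifting events in 43 genes. Of these, 2 were called (3.17%), both less included in Qk cKO, beside 2.76% of all frame-shifting and 4.85% of all cassette events tested. The list was chosen with earlier results of these data known, so its count is a description. The median difference over the 63 was -0.00281, and the median absolute difference 0.0149, beside 0.0245 over all tested frame-shifting events. Those of the list with a stop when included (19 events) had a median control inclusion of 0.0666 and differences from -0.0653 to 0.0552, and those with a stop when skipped (16 events) had 0.948 and differences from -0.0302 to 0.0217. Inclusion this low or this high leaves little room for a further fall or rise. The called pair were a 226 nt exon of Hnrnpa2b1, a nuclear ribonucleoprotein of splicing and RNA transport (chr6:51462339-51462564), at 0.387 and 0.429 in control and 0.205 and 0.263 in Qk cKO, and a 160 nt exon of Syncrip with its start codon (chr9:88480606-88480765), at 0.165 and 0.111 in control and 0.0350 and 0.0345 in Qk cKO. The Hnrnpa2b1 call was lost when any 1 library was left out (-0.193 without control replicate 1, -0.151 without control replicate 2, -0.144 without Qk cKO replicate 1, -0.202 without Qk cKO replicate 2), and the Syncrip call was lost without control replicate 1 (-0.0764), Qk cKO replicate 1 (-0.103) or Qk cKO replicate 2 (-0.102). Neither passed the edgeR interaction test (FDR 0.525 and 0.283), and their levels did not pass either (log2 fold change 0.02 and 0.14, edgeR FDR 0.961 and 0.579). The Hnrnpa2b1 exon is not annotated, so its effect on the frame was not predicted.

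The 4 events of the list with the highest coverage differed by less than 0.1 and were not called. The 107 nt exon of Eif4a2, a translation initiation helicase, was at 0.0905 and 0.0869 in control and 0.0907 and 0.101 in Qk cKO. The penultimate 50 nt exon of Hnrnph1 was at 0.909 and 0.907 in control and 0.916 and 0.924 in Qk cKO. The stop-bearing exon of Rbm39 was at 0.214 and 0.221 in control and 0.194 and 0.181 in Qk cKO, with a difference of -0.0299 (Fisher's exact FDR 0.0723, edgeR interaction FDR 0.705). A 67 nt exon of U2af1, the small subunit of the factor that reads the 3′ splice site (chr17:31652502-31652568), was at 0.108 and 0.121 in control and 0.150 and 0.107 in Qk cKO. Another 67 nt exon of U2af1 (chr17:31651646-31651712) is not among the 4. It was at 0.663 and 0.632 in control and 0.588 and 0.622 in Qk cKO, and was not called. Among the exons named by size of change, edgeR, gene level or this list, the Wilson intervals reached from 0.00979 to 0.272 to either side. The median was 0.0682 over all tested frame-shifting events and samples. Levels of the 4 genes did not pass the test, with log2 fold changes from 0.07 to 0.15 (edgeR FDR 0.636 to 0.826).

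Another 3 lists sort the called exons by the work of their genes, and were written with calls of these data known, so their counts and directions describe genes partly chosen from the calls, cannot be read against the 4.85% of all cassette events (2.22% more and 2.63% less included), and the genes named here for the first time were chosen after their values were seen. Of chromatin and transcription genes, 11 of 37 tested events were called, 10 less and 1 more included in Qk cKO. They included exons of Crtc2, Irf9, Itgb3bp, Flywch1 (2 events), Pbrm1, of a chromatin-remodelling complex, Scmh1, of a Polycomb complex, Mbtd1, Tbp, the TATA-binding protein, and Hp1bp3, the one that was more included. Of Golgi and membrane traffic genes, 10 of 21 were called, 7 more and 3 less included, with Golga4, Gcc2 (another golgin, 0.564 and 0.810 against 0.850 and 0.945), Flot2, Rer1, Arfip2, Necap2 and Tjap1 more included and Rin2, Slc35b3 and Tmem175 less. Of cytoskeleton and centrosome genes, 7 of 20 were called, Bbs9, Ccdc64, Cyfip1, Eml2 and Haus2 less and Bcas3 and Fmnl2 more included. In the edgeR interaction test, 1 event of the first list (Crtc2), 2 of the second (Golga4 and Tjap1) and 1 of the third (Cyfip1) passed. None of the genes named here for the first time did. Among those, coverage was low for Rin2 (23.0 tags) and Necap2 (29.8 tags). The controls were far apart for Rin2 (0.765 and 0.467) and Hp1bp3 (0.495 and 0.794). Fits without each sample are not given for them.

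Along the length range, 14 of 323 tested exons of 31 to 60 nt were called (4.33%), 16 of 681 of 61 to 100 nt (2.35%), 14 of 594 of 101 to 150 nt (2.36%), 9 of 298 of 151 to 200 nt (3.02%) and 3 of 136 of 201 to 300 nt (2.21%), beside the 2.76% of all frame-shifting and 4.85% of all cassette events. The share was 33 of 1051 (3.14%) for exons that shift the frame by 1 nt and 23 of 981 (2.34%) for those that shift it by 2. Differences between the lengths were not tested. Just inside the short limit, at 31 and 32 nt, 17 of 68 events were tested, with differences from -0.369 (Ralgapa1) to 0.106, and just outside it, at 28 and 29 nt, 12 of 45, with differences from -0.0291 to 0.156. At the long limit, 2 of 5 events of 298 and 299 nt (-0.00913 and 0.0189) and 1 of 5 of 301 and 302 nt (0.00216) were tested.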

How the data were processed

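Total RNA of E14.5 cortices from 2 control and 2 Qk cKO samples was sequenced as paired-end, poly-A selected TruSeq libraries. Per the study's methods, the authors used OLego to align reads against mm10 together with known exon junctions, and Quantas to count events and genes, whose versions are not given in the sources used here. The labels name a NextSeq 500 and the study's text a HiSeq. The deposited values used here were estimated counts of tags for each splicing isoform, junction and gene, 1 file per sample, which were rounded to whole numbers before tests, and RPKM, which the authors computed from gene tags, exon length and the total of gene tags.

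Inclusion and coverage came from junction tags. Fisher's exact test used isoform tags summed by group (scipy 1.17.1). The edgeR 4.0.16 interaction test used a baseline for each sample, and gene tags were tested by the edgeR quasi-likelihood test with TMM normalization on genes with at least 1 tag, where the SE is the log2 fold change over the square root of F. RPKM served as a description only. Intervals of single samples are 95% Wilson intervals, which for tags without molecular identifiers cover counting error only. Reading frames were translated from GENCODE M21 on GRCm38, the same assembly as mm10, using the annotated principal transcript or else the longest coding sequence that holds both flanking exon ends.

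The members were set by exon length alone. This length class and the gene lists were chosen with earlier results of these data known. Exons were named where the call reached a difference of 0.1, the groups did not overlap and coverage was at least 40 tags (at most 12 in each direction, 1 event per gene), where edgeR called them, where the gene changed level, or where they were called or among the 4 best covered of the decay-coupled list. All tests were checked on simulated data. Alternatives were other coverage and difference limits, junction tags alone, DESeq2 1.42.0, the edgeR exact test, upper-quartile normalization, filterByExpr, the replicate block and fits without each sample. Sequence motifs around the exons were not analysed here, and 1 event that met the naming rule is not reported here.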

Additional observations from a re-analysis of the deposited data

How the results depend on the processing

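Every named exon kept its direction with the mean of the 2 inclusions of each group and with the share of isoform tags. The 6 called exons with a stop when included (2 more and 4 less included, 2 called by edgeR) became 5 (1 and 4, 2 by edgeR) when all transcripts had to give the same class and 9 (4 and 5, 5 by edgeR) when any stop before the last junction counted, and the 10 with a stop when skipped became 9 and 11. The 20 more and 36 less included events became 11 and 20 at a coverage of at least 50 tags, 10 and 14 at a difference of at least 0.2, and 2 and 4 where the edgeR interaction test had to call a difference of at least 0.1. With each sample left out in turn they ranged from 16 to 31 and from 19 to 29, and the 9 events of the edgeR test from 0 to 4 (for that test, leaving out samples and the replicate block were chosen after seeing the data). The 13 genes with a changed level (6 higher, 7 lower) became 4 (1 and 3) by the edgeR exact test and 2 (1 and 1) with filterByExpr, where fewer genes were tested, 15447 against 18834, and ranged from 0 to 38 (0 to 22 higher, 0 to 16 lower) with each sample left out. DESeq2 gave 13 (7 and 6). Without control replicate 2, edgeR called 0 of all genes, with 966 at an unadjusted p under 0.05. Other causes of these shifts were not tested.

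Same-numbered samples did not deviate together in inclusion (r = -0.058 over 2031 exons), though they did in log2(RPKM + 1) (r = 0.488 over 1504 genes). The labels give only the shared number, and 2 pairs cannot show what it stands for. The gene levels given above were fitted without the replicate block. With the replicate block, 22 events were more and 39 less included, the edgeR interaction test called 11, and 21 genes changed level (11 higher, 10 lower). Over all 18834 genes, 192 changed level with the block and 110 without it. The replicate block ended the call of the Mbtd1 exon (Cochran-Mantel-Haenszel test with the replicate block, FDR 0.106), which is not among the 57 exons tallied below. It ended no other call of a named exon or gene.

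Among uncalled values, leaving out 1 sample turned the direction of 6 inclusion differences, whose values with a sample left out were -0.0550 to 0.0142 (Haghl, 191 nt), -0.00809 (Rpl27a, 175 nt), -0.00811 (Rpl27a, 167 nt), -0.00681 to 0.0359 (U2af1, 67 nt, chr17:31652502-31652568), -0.0596 to 0.107 (Dkc1, 82 nt) and -0.0288 to 0.111 (Fhl1, 200 nt). It also turned 7 log2 fold changes, with values of -0.0920 to 0.0779 (Bbs9), -0.0963 to 0.0307 (Bcas3), -0.0237 to 0.0653 (Hnrnpa2b1), -0.0526 to 0.0433 (Odz4), -0.00232 to 0.0614 (Qrich1), -0.0457 to 0.125 (Tjap1) and -0.00564 to 0.156 (U2af1). In all, 321 inclusion differences of named exons under an alternative kept direction and side of the threshold, 96 lost the call, 5 gained it and 6 turned direction, and 28 with a sample left out could not be tested because coverage fell under 20 tags, 11 of them for called exons. For levels 247 kept both, 37 lost the call and 10 turned direction. The edgeR interaction test gave 29 of the lost and 3 of the gained exon calls. The 95% interval of 1 sample in a typical tested event reached 0.0682 to either side of its inclusion, which limits what single values show.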
